A study of Homo sapiens with 23 samples.

Results

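Target genes of the oxidative stress regulator NRF2 are described here in xenograft tumours of a human skin carcinoma line with and without a knockout of Flower. The 9 genes, HMOX1, NQO1, GCLM, GCLC, TXNRD1, SRXN1, SLC7A11, AKR1B10 and AKR1C2, were chosen by name for their function, out of 27589 genes in the deposited table. All 9 were among the 16063 genes whose mean value over the tumours was at least 10 and which were therefore tested.

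SCC-13 is an established line of human cutaneous squamous cell carcinoma. Its cells, either with intact human Flower (hFWE WT) or with hFWE knocked out (hFWE KO), were injected under the skin of NCG mice, a strain that lacks lymphocytes and keeps innate immune cells, and the tumours were taken at day 26. Poly(A) RNA was sequenced from 12 WT tumours, 4 each of 5B2, 6C9 and 6C10, and from 11 KO tumours, 3 of line 2F7 and 4 each of the lines 2B8 and 1G10. All groups share the SCC-13 cells, the host strain, the injection site and the day. The lines are given by code, with nothing on how they were derived, and each line has 1 genotype. Names of tumours give genotype, line and specimen number. Whether each came from its own mouse is not stated, so a p-value speaks of the spread among the tumours sampled.

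NRF2, encoded by NFE2L2, is a transcription factor that the adaptor KEAP1 marks for degradation. Oxidants and electrophiles modify cysteines of KEAP1, NRF2 then accumulates, pairs with a small MAF protein and binds antioxidant response elements near its target genes. Those targets degrade heme, reduce quinones and carbonyls, and build and recharge glutathione and thioredoxin. BACH1 competes for the same elements, above all at HMOX1, and keratinocytes use the pathway both against stress and while forming the cornified layer.

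The core letters of the antioxidant response element, TGACNNNGC on either strand, were searched in RefSeq promoters of build GRCh38.p14, each reaching from 250 bases before to 50 bases after a gene's start. The table held 7 promoters of 6 of the genes. Over all 35116 promoters of that length 13.3% held the letters at least once. They were found in 3 of the 7, 1 of GCLM and both of TXNRD1, and are printed because these are the places where the named factor's letters occur beside 2 of the genes measured. The letters can overlap TGACTCA, the site of the AP-1 factors, and a match is a description, not a binding site. Capitals mark the 9 letters, the strand printed is the one that carries them, and the matches begin 34 bases before the start in GCLM and 99, 8 and 102 bases before it in TXNRD1.
GCLM, chr1:93909446-93909474, plus strand: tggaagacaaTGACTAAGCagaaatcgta
TXNRD1, chr12:104215670-104215698, plus strand: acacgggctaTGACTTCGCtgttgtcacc
TXNRD1, chr12:104215761-104215789, minus strand: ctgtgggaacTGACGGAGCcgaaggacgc
TXNRD1 second promoter, chr12:104286920-104286948, minus strand: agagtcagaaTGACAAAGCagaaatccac

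The values are the deposited normalized ones, scaled for depth and not for gene length, so they are compared between tumours and not between genes. Estimated reads per library ranged from 13082214 to 22093213 in 21 libraries. Both shallow libraries belonged to WT line 6C9, specimen 5532 having 7011069 reads and specimen 5533 having 2037751. In specimen 5533 the values of SLC7A11, GCLM, GCLC and TXNRD1 rested on 5, 12, 13 and 18 estimated reads, and its median correlation with the other libraries was 0.763. The keratinocyte genes KRT5, KRT14 and TP63 were present in every tumour, TP63 at no less than 1334. CACFD1, the gene of Flower, was 373 ± 47.1 among the WT (SD, n = 12) and 276 ± 58.9 among the KO tumours (SD, n = 11), and the lowest KO value was 167. The part of the gene that was removed is not given, so a remaining signal does not speak against the label. By line the KO means were 342 ± 31.6 in 2F7 (SD, n = 3), 265 ± 44.1 in 2B8 and 237 ± 49.0 in 1G10 (n = 4 each). The lowest WT mean was 331 ± 35.4 in 6C9 (n = 4), and the lowest WT tumour had 286. The values of 2F7 (308 to 370) and of 2B8 (218 to 321) thus overlapped those of WT tumours, and those of 1G10 (167 to 281) did not.

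No gene of the 9 passed limma's test of KO against WT at an adjusted p of 0.05, where 0.00623% of all genes tested, a single gene, passed. At an unadjusted p under 0.05, 3 of the 9 were lower in KO tumours, HMOX1, TXNRD1 and AKR1B10, against 6.63% of all genes that were lower, and 0 were higher, against 5.9%. HMOX1 was the only one of the 9 with a log2 difference of -1 or lower, a size that 0.847% of all genes reached. HMOX1 and TXNRD1 were below the WT median in all 11 KO tumours, as 2.76% of all genes were. For none of the 9 did the 3 KO line means lie apart from the 3 WT line means, which happened in the lower direction for 8.87% and in the higher direction for 9.77% of all genes. The median log2 difference of the 9 was -0.07, beside 0.03 over all genes tested.

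**Figure D1:**
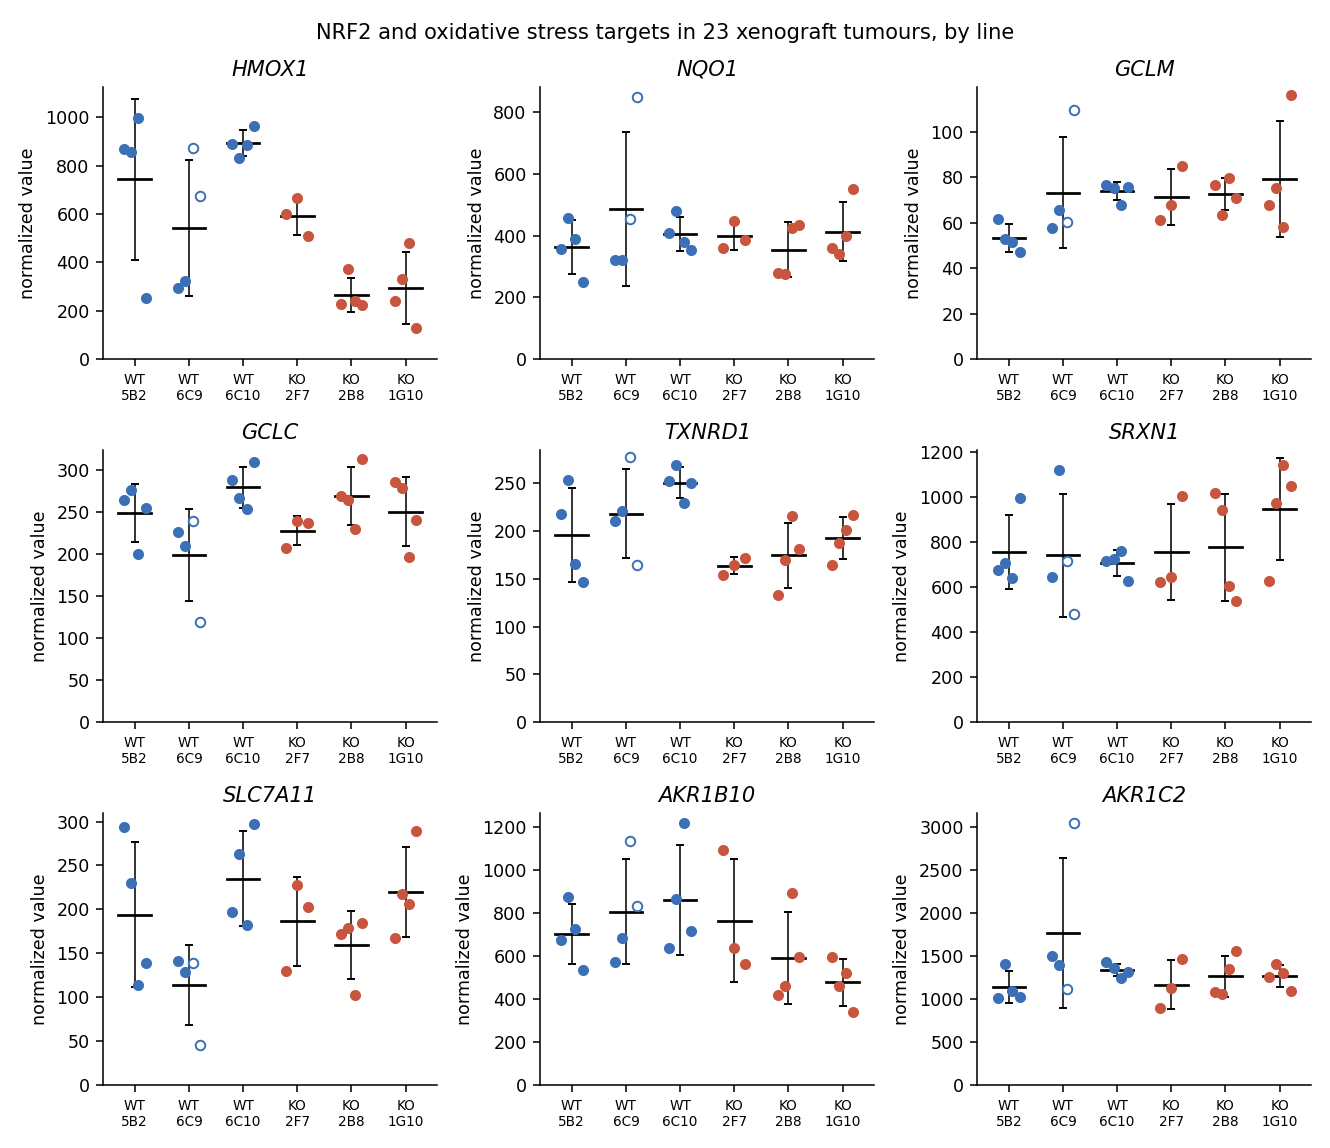
Normalized value (vertical axes, from 0) of each of the 9 genes in the 23 tumours, by line (horizontal axes). Each point is 1 tumour, WT in blue and KO in red, open points are the shallow libraries 5532 and 5533 of line 6C9, horizontal bars are line means and error bars are the SD. HMOX1 is at 371 or less in all tumours of KO line 2B8 and at 833 or more in all tumours of WT line 6C10. Other WT tumours reach down to 254, within the KO range of 129 to 667. WT and KO tumours also overlap in NQO1, GCLC and AKR1C2.

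HMOX1 encodes heme oxygenase 1, the inducible enzyme that cleaves heme into biliverdin, iron and carbon monoxide. It lies on chromosome 22 (hg38, 35380361 to 35394215, plus strand, ENSG00000100292). In WT line 5B2 the 4 tumours had 869, 858, 996 and 254, in line 6C9 they had 294, 321, 872 and 676, and in line 6C10 they had 890.4, 833, 884 and 965. Most WT tumours were thus high, and 3 were low, specimen 5529 of line 5B2 and specimens 5530 and 5531 of line 6C9.
In KO line 2F7 the 3 tumours had 600.1, 667 and 509. Line 2B8 gave 229.6, 371, 239 and 226, and line 1G10 gave 239, 332, 479 and 129. All 11 KO tumours were below the WT median of 863, and 5 of them, from lines 2B8 and 1G10, were below the lowest WT tumour.

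The means of HMOX1 were 726 ± 275 among the WT (SD, n = 12) and 365 ± 175 among the KO tumours (SD, n = 11). On the scale of log2(value + 1) it was 1.01 lower in KO tumours (log2 difference -1.01, SE 0.29, limma p 0.0019, adjusted p 0.227), a ratio of 0.498. The exact two-sided permutation test of its 6 line means gave p = 0.2, where the smallest p that 3 lines against 3 allow is 0.1. The difference did not pass the test over all genes, and the WT tumours themselves ranged from 254 to 996.

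The 3 tumours of KO line 2F7 had the highest HMOX1 of the KO tumours, without overlap with the other KO lines. Of the KO lines 2F7 also had the highest CACFD1 and the highest level of the late differentiation genes described below. The part of either in HMOX1 was not tested. Against the mean of the WT lines the log2 difference was -0.16 (SE 0.38) in 2F7, -1.34 (SE 0.34, p 0.00075, adjusted p 0.286) in 2B8 and -1.31 (SE 0.34, p 0.00089, adjusted p 0.207) in 1G10. Limma's F test among the 3 KO lines gave an unadjusted p of 0.027 for HMOX1 (adjusted p 1). In that test 2.22% of all genes had an unadjusted p under 0.05, and no gene passed after adjustment (0%). Without specimen 5529, the low tumour of WT line 5B2, HMOX1 passed the adjusted threshold against both 2B8 and 1G10, the one gene of the 9 that did, where 0.106% and 0.0996% of all genes passed. With libraries weighted by their quality (limma's arrayWeights), HMOX1 passed in KO against WT at a log2 difference of -1.17 (adjusted p 0.0129), and TXNRD1 was the other of the 9 to do so. Under those weights 4.59% of all genes passed, and specimen 5533 had a weight of 0.0287 where the highest was 2.04.

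**Figure D2:**
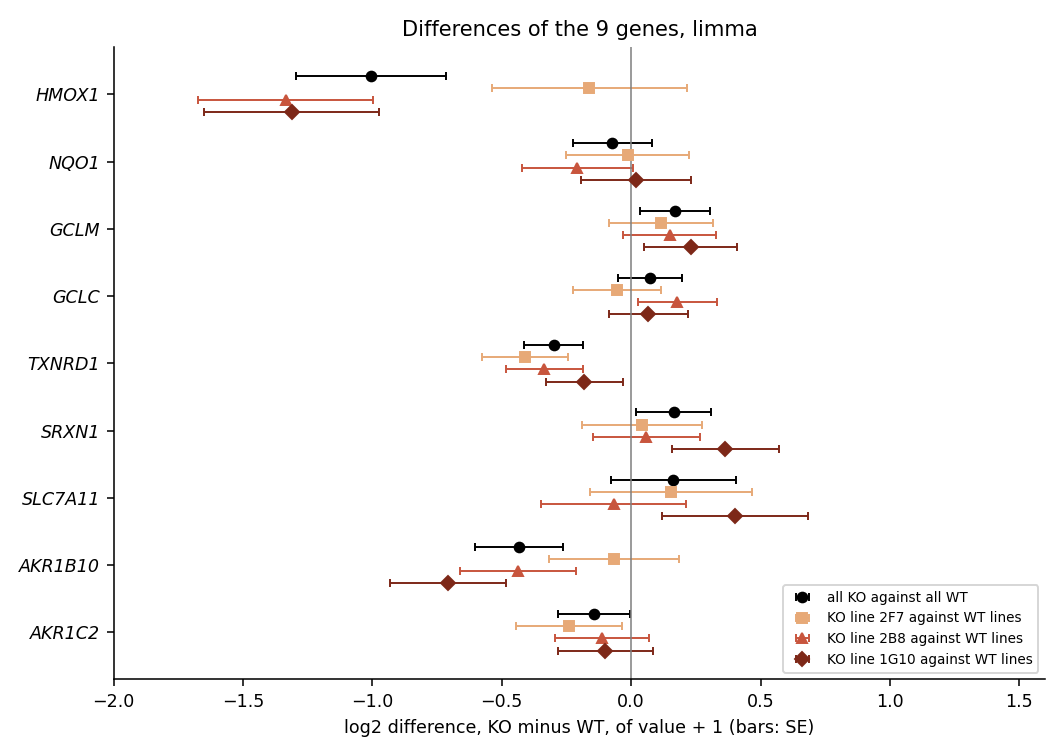
Difference KO minus WT of log2(value + 1) (horizontal axis) for the 9 genes (vertical axis), from limma. Black circles are all KO against all WT tumours, coloured symbols are each KO line against the mean of the WT lines, and bars are the SE. HMOX1 is at -1.34 and -1.31 in lines 2B8 and 1G10 and at -0.16 in line 2F7, and TXNRD1 is left of 0 in all 3 lines.

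Heme oxygenase is also made by macrophages that take up red cells, so markers of such cells were read beside it. The values are those of human genes and the host is a mouse. Its transcripts enter only where mouse reads match human sequence, so low or similar values do not show how many host cells were present. In bulk tumours fewer cells of a type and less RNA per cell cannot be told apart. Of 15 macrophage markers 10 were matched, and 7 of these had a mean under 10. Their summed value was 469 to 649 (median 535) in WT and 410 to 627 (median 525) in KO tumours, most of it CD68, which other cells make too, at 466 ± 68.4 among the WT (SD, n = 12) and 429 ± 65.1 among the KO tumours (SD, n = 11). The scavenger receptor CD163, which takes up hemoglobin, was near 0, with means of 1.24 in WT and 1.02 in KO tumours. Of 7 erythroid markers 5 were matched, all with a mean under 10, and they summed to 4.46 to 100.5 in WT and 3.17 to 23.8 in KO tumours. Both highest WT sums, 100.5 and 42.9, were those of the shallow specimens 5533 and 5532, and no other WT tumour was above 19.9. Fibroblast markers, 11 of 11 matched, summed to 7564 to 26213 in WT and 11350 to 39765 in KO tumours, and their part in the result was not tested.

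NQO1 encodes a quinone reductase and is a standard readout of NRF2 activity. It lies on chromosome 16 (69706996 to 69726669, minus strand, ENSG00000181019). In WT tumours it ranged from 249 to 849.6 with a median of 385, and in KO tumours from 277 to 550.1 with a median of 384. The groups overlapped throughout, and 6 of 11 KO tumours were below the WT median. The log2 difference was -0.07 (SE 0.15, adjusted p 0.821). The highest value, 849.6, was that of the shallow specimen 5533, where 93 estimated reads carried it, and without that tumour the difference was 0.03. In the KO lines it was -0.01 in 2F7, -0.21 in 2B8 and 0.02 in 1G10.

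Glutathione synthesis is represented by 3 of the genes. GCLC (chromosome 6, 53497341 to 53616971, minus strand, ENSG00000001084) and GCLM (chromosome 1, 93885199 to 93909457, minus strand, ENSG00000023909) encode the catalytic and the modifier subunit of glutamate-cysteine ligase, the rate-limiting enzyme. SLC7A11 (chromosome 4, 138164097 to 138242350, minus strand, ENSG00000151012) encodes xCT, the transporter that brings in cystine in exchange for glutamate and so supplies cysteine to the ligase. None of the 3 was lower in the KO tumours by mean, and none of the 3 differences passed the test.

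GCLC ranged from 119 to 309 (median 254) in WT and from 196 to 314 (median 240.3) in KO tumours, a log2 difference of 0.07 (SE 0.12, adjusted p 0.775). GCLM ranged from 47.05 to 109.6 (median 63.6) in WT and from 58.1 to 116 (median 70.8) in KO tumours, a log2 difference of 0.17 (SE 0.14, adjusted p 0.563). GCLM was above the WT median in 9 of 11 KO tumours, and no KO tumour was below the lowest WT one. Its difference had the same sign in each KO line, 0.12 in 2F7, 0.15 in 2B8 and 0.23 in 1G10. Among WT lines the lowest mean was that of 5B2, 53.2 ± 6.10 (SD, n = 4), where 6C9 had 73.3 ± 24.4 and 6C10 had 73.9 ± 4.01.

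SLC7A11 spanned 6.50-fold from lowest to highest tumour, where GCLC spanned 2.64-fold and GCLM 2.47-fold. The lowest was the shallow specimen 5533 with 5 estimated reads, and without it the spans were 2.90-fold, 1.596-fold and 2.47-fold. The 4 tumours of WT line 5B2 had 293, 230.4, 114 and 139. Those of 6C9 had 141, 129, 139 and 45.7. Those of 6C10 had 198, 263, 183 and 297, so that every 6C10 tumour was above every 6C9 tumour. In KO line 2F7 the values were 129.8, 227 and 203, in 2B8 they were 172, 179, 102 and 185, and in 1G10 they were 167, 217, 206 and 289. KO and WT tumours overlapped, with a log2 difference of 0.16 (SE 0.24, adjusted p 0.743), and 9 of 11 KO tumours were above the WT median of 162.

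The WT lines were also compared with each other. In the F test among the 3 WT lines SLC7A11 had an unadjusted p of 0.010 and GCLC one of 0.028 (adjusted p 0.482 for both), and line 6C9 had the lowest mean of each. At an unadjusted p under 0.05, 10.3% of all genes passed this test, and 0.00623% passed after adjustment. Line 6C9 includes the shallow specimen 5533, at 45.7 for SLC7A11 and 119 for GCLC. The other 6C9 tumours had 129 to 141 and 210 to 240, and no p-value of the F test without 5533 is given here. Without both shallow 6C9 libraries the KO against WT difference of SLC7A11 was -0.03 and that of GCLC was -0.02, the opposite sign for both genes.

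The thioredoxin arm is represented by TXNRD1 and SRXN1. TXNRD1 (chromosome 12, 104215779 to 104350308, plus strand, ENSG00000198431) encodes the cytosolic selenoenzyme that recharges thioredoxin with NADPH. In WT line 5B2 it was at 218, 254, 165 and 147, in 6C9 at 210.2, 221, 277 and 164, and in 6C10 at 252, 269, 229 and 251. KO line 2F7 gave 154, 164 and 172, line 2B8 gave 133, 169, 215 and 181, and line 1G10 gave 165, 188, 201 and 217. All 11 KO tumours were below the WT median of 225, yet 4 WT tumours were below the highest KO tumour.

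TXNRD1 had means of 221 ± 43.0 among the WT (SD, n = 12) and 178 ± 25.7 among the KO tumours (SD, n = 11), a log2 difference of -0.30 (SE 0.11, limma p 0.014, adjusted p 0.303). The exact test of line means gave p = 0.2. The difference was -0.41 in 2F7 (p 0.023, adjusted p 0.95), -0.34 in 2B8 (p 0.036, adjusted p 0.588) and -0.18 in 1G10 (p 0.24). TXNRD1 was the one gene of the 9 with an unadjusted p under 0.05 in line 2F7, where 2.48% of all genes passed so and 0% passed after adjustment. In line 2B8 it was joined by HMOX1 (8.19% of all genes, 0% after adjustment). In line 1G10, HMOX1 and AKR1B10 passed at the unadjusted level (9.66%, and 0% after adjustment). In the F test of limma among the KO lines TXNRD1 had an adjusted p of 1, so the KO lines could not be ranked by it. The KO lines share the WT tumours they were compared with.

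SRXN1 encodes sulfiredoxin, which restores peroxiredoxins that peroxide has overoxidized. It lies near the end of the short arm of chromosome 20 (646615 to 653201, minus strand, ENSG00000271303). The 4 tumours of WT line 5B2 had 675, 707, 640.1 and 998, those of 6C9 had 646, 1122, 714 and 483, and those of 6C10 had 715, 723, 760.4 and 628. KO line 2F7 had 624, 644 and 1003, line 2B8 had 1017, 944, 605 and 538, and line 1G10 had 625, 974, 1142 and 1048. The tumours fell into a lower and a higher set with nothing between 760.4 and 944, and both sets held tumours of both genotypes. The log2 difference was 0.16 (SE 0.15, adjusted p 0.590).

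The higher set of SRXN1 was the set of tumours in which chromosome 20 as a whole was high. Over the 414 other tested genes of chromosome 20, the median log2 value, centred on each gene's mean, was 0.22 to 0.39 in 8 tumours and -0.30 to -0.12 in the other 15. These 8, 2 WT (5B2 5529 and 6C9 5531) and 6 KO (2F7 5540, 2B8 5542 and 5543, and 1G10 5547, 5548 and 5549), were the 8 with the highest SRXN1, 944 to 1142 with a median of 1010, where the 15 had 483 to 760.4 with a median of 644. The 62 tested genes that start within 5 Mb of SRXN1 gave the same split, 0.21 to 0.51 against -0.28 to -0.08. The high tumours made up 1 of 4 in 5B2, 1 of 4 in 6C9, 0 of 4 in 6C10, 1 of 3 in 2F7, 2 of 4 in 2B8 and 3 of 4 in 1G10, so that no KO or WT line was uniformly high. Among the 15 low tumours SRXN1 had a median of 691 in the 10 WT and 624 in the 5 KO tumours, and among the 8 high tumours it was 998 and 1122 in the WT and 944 to 1142 in the KO tumours. The DNA of the tumours was not measured.

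**Figure D3:**
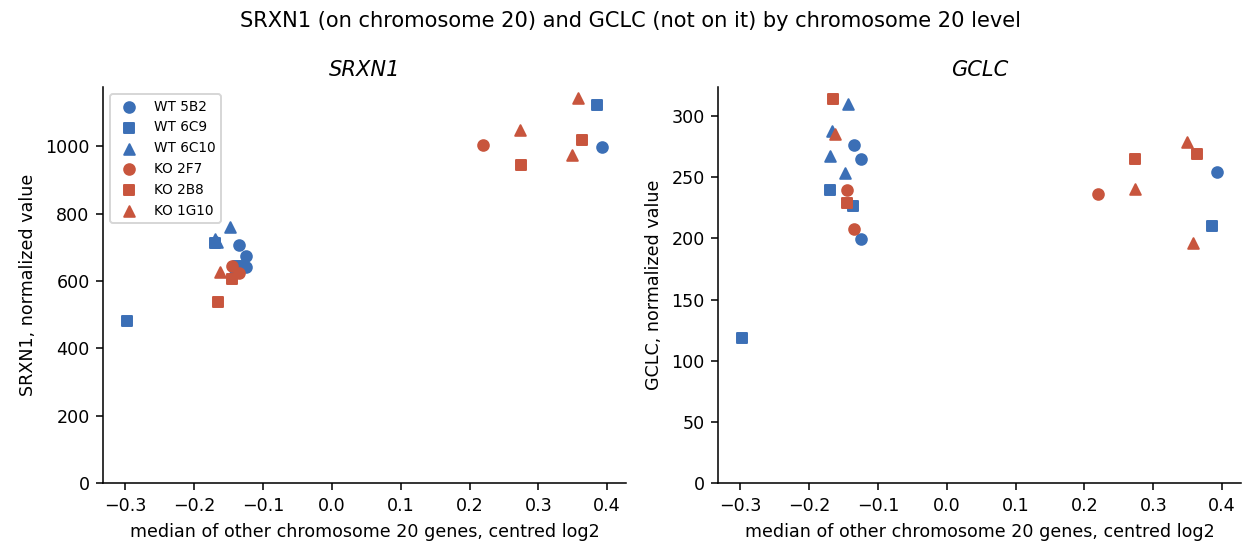
Normalized value of SRXN1 (left, vertical axis from 0), and of GCLC, a gene of chromosome 6, for comparison (right), against the median centred log2 value of the 414 other tested genes of chromosome 20 (horizontal axes). Each symbol is 1 tumour, by line. The 8 tumours at 0.22 or more have SRXN1 of 944 or more, the 15 to the left have 760.4 or less, and GCLC overlaps between them.

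The low-HMOX1 tumours and the tumours high for chromosome 20 were partly the same ones. HMOX1 was 254 and 321 in the 2 WT tumours with high chromosome 20 values and had a median of 870.4 (294 to 996) in the other 10. In KO tumours it had a median of 351 (129 to 509) in the 6 high ones and 239 (226 to 667) in the 5 low ones. AKR1B10 had medians of 778 in the 10 WT and 636 in the 5 KO tumours with low chromosome 20 values. With high ones it was 534 and 682 in the 2 WT tumours and had a median of 460.1 in the 6 KO tumours. The part of chromosome 20 in these values was not tested. The 115 tested genes within 5 Mb of HMOX1 itself had medians between -0.12 and 0.08 in all tumours.

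AKR1B10 and AKR1C2 encode aldo-keto reductases, NADPH-dependent enzymes that turn aldehydes and ketones into alcohols; AKR1B10 acts on retinal and lipid aldehydes and AKR1C2 on steroids. AKR1B10 (chromosome 7, 134527567 to 134541413, plus strand, ENSG00000198074) shares 92.6% of its coding bases with AKR1B15. AKR1C2 (chromosome 10, 4987775 to 5018032, minus strand, ENSG00000151632) shares 98% with AKR1C1 and 91.3% with AKR1C3. Reads that fit more than 1 copy may have been split between them, so the values of both are uncertain.

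AKR1B10 was at 674, 872, 725 and 534 in WT line 5B2, at 572, 682, 1133 and 831 in 6C9 and at 638, 865, 1217 and 717 in 6C10. It was at 1092, 636 and 563 in KO line 2F7, at 416, 461, 890.1 and 595 in 2B8 and at 596, 459, 521 and 338 in 1G10. In KO tumours 9 of 11 were below the WT median of 721 and 5 were below the lowest WT tumour, while 1 tumour of 2F7 and 1 of 2B8 were among the high ones.

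Means of AKR1B10 were 788 ± 210 among the WT (SD, n = 12) and 597 ± 218 among the KO tumours (SD, n = 11), a log2 difference of -0.43 (SE 0.17, limma p 0.017, adjusted p 0.313), with p = 0.2 in the exact test of line means. It was -0.07 in 2F7, -0.44 in 2B8 and -0.71 in 1G10 (p 0.005, adjusted p 0.261), and without line 1G10 the overall difference was -0.28. AKR1C2 ranged from 1015 to 3044 (median 1336) in WT and from 901 to 1559 (median 1250.0) in KO tumours, a log2 difference of -0.14 (SE 0.14, adjusted p 0.621). Its highest value was again that of the shallow specimen 5533, and the next highest was 1559. AKR1C1 and AKR1C3 differed by -0.03 and -0.06, and AKR1B15 by -0.12, none past the test.

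No regulator of the pathway passed the test between the genotypes. NFE2L2, the gene of NRF2, was 2020 ± 118 among the WT (SD, n = 12) and 1947 ± 200.5 among the KO tumours (SD, n = 11), and KEAP1 was 1092 ± 69.5 and 1078 ± 76.4, with log2 differences of -0.06 (adjusted p 0.643) and -0.02 (adjusted p 0.869). BACH1, the repressor, differed by 0.13. All 11 regulators listed were tested, none passed after adjustment, and 1, MAFF, a small MAF partner, had an unadjusted p under 0.05 (-0.37, adjusted p 0.353). In either direction 12.5% of all genes had such a p. The most abundant regulators were NFE2L1 (0.21) and the autophagy adaptor SQSTM1 (-0.03), which binds KEAP1. NRF2 is controlled mainly as a protein, which these RNA values do not show.

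No other gene of the pathway passed after adjustment either, where 0.00623% of all genes passed. At an unadjusted p under 0.05, 5.9% of all genes were higher and 6.63% lower. These shares stand beside the counts of all lists from here to the aldo-keto reductases. Of 32 other NRF2 targets tested, out of 35 listed, 1 was higher and 3 lower at an unadjusted p under 0.05, with a median log2 difference of -0.10. The 2 most abundant, the glutathione transferase GSTP1 and the iron store FTH1, differed by -0.09 and 0.01. Of 19 glutathione genes 1 was higher and 3 lower (median -0.16). The 2 most abundant were GLRX and the peroxidase GPX1, and GPX1 differed by -0.21 (adjusted p 0.631). GPX1 had medians of 2015 in WT and 1871 in KO tumours, and its highest WT value, 9217, belonged to line 6C9. GLRX, the glutaredoxin that removes glutathione from proteins, was 2777 ± 650.3 among the WT (SD, n = 12) and 1963 ± 785 among the KO tumours (SD, n = 11), a log2 difference of -0.62 (adjusted p 0.304). GGCT, which breaks down gamma-glutamyl peptides and was picked out after its values were seen, was at 2869 ± 1408 and 1381 ± 385 (-0.94, adjusted p 0.227). It was below the WT median in all 11 KO tumours, as 2.76% of all genes were.

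Of 18 genes of the thioredoxin and peroxiredoxin systems 1 was higher and 2 lower at the unadjusted level (median -0.13). PRDX1 and PRDX5, the most abundant, both differed by -0.25. Their medians were 3416 and 3029 in WT and 3099 and 2822 in KO tumours. The highest WT value of each was far above these, 9118 and 15694, and belonged to line 6C9. Both low genes, picked out after their values were seen, repair oxidized methionine, MSRB1 (-0.38) and MSRB3 (-1.21, adjusted p 0.233). The high one, SESN3, a sestrin that was likewise picked out after its values were seen, was above the WT median in all 11 KO tumours (0.38, adjusted p 0.228). The share of all genes that were so was not counted. Enzymes that make or clear superoxide and peroxide had 0 of 14 at the unadjusted level in either direction (median -0.14).

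SLC7A11 is also a target of ATF4, the factor of the amino acid response. Of 20 genes listed for ATF4, with ATF4 itself among them, 0 were higher and 3 lower (median -0.09). The 3 lower, picked out after their values were seen, were ATF4 (-0.24, adjusted p 0.276), CEBPB (-0.37, adjusted p 0.287) and PSAT1 (-0.54, adjusted p 0.380). DDIT4 and SLC7A5, the most abundant, differed by 0.13 and 0.17. HMOX1 also belongs to heme and iron handling, where 1 of 14 genes was higher and 1 lower (median 0.02). The lower one was BLVRB, a biliverdin reductase, with -0.36 (adjusted p 0.357), and the higher one was ACO1, an iron sensor, with 0.31 (adjusted p 0.283). Both are named here after their values were seen. Of the 6 other aldo-keto reductases tested, 0 passed even unadjusted, and AKR1A1 and AKR1B1 differed by -0.15 and 0.19.

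HMOX1 went with keratinocyte differentiation from tumour to tumour. Each tumour's level of late differentiation was taken as the mean log2 value of 23 genes of the granular and cornified layers, among them FLG, LORICRIN and KRT10, a list that does not hold HMOX1. This family of 9 relations, 1 per gene, was chosen after the data were seen. The list's level was 12.2 ± 0.65 among the WT (SD, n = 12) and 11.1 ± 0.99 among the KO tumours (SD, n = 11). Of its 23 genes, 19 were lower at an unadjusted p under 0.05, against 6.63% of all genes. After adjustment 0 passed, against 0.00623% of all genes. Over the 23 tumours Pearson's r with HMOX1 was 0.92 and Spearman's rho 0.89, each with a permutation p of 1e-05, the smallest that 100000 resamples can give (adjusted p 9e-05).

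The relation of HMOX1 was also present within each genotype and within lines. Pearson's r was 0.92 within the WT tumours, 0.89 within the KO tumours and 0.86 after each line's mean was subtracted. Without the 2 tumours farthest from the median in HMOX1, KO 1G10 5549 and KO 2B8 5545, r was 0.94, and leaving out both shallow libraries gave 0.92. The 3 WT tumours low in HMOX1, 5529, 5530 and 5531, had the 3 lowest list levels of the WT tumours, 11.1, 11.6 and 10.8. KO 1G10 5549 had the lowest of all in both, 8.55 for the list and 129 for HMOX1. The tumours of KO line 2F7 were the highest KO tumours in both, with list levels of 11.9, 12.2 and 11.9. The median log2 difference of the list from the WT lines was -0.23 in 2F7, -1.27 in 2B8 and -1.48 in 1G10. Of 16040 tested genes outside the list, 57 (0.355%) had an r with it as high as that of HMOX1. The list and HMOX1 were measured in the same libraries, and tumours of a line are not independent.

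**Figure D4:**
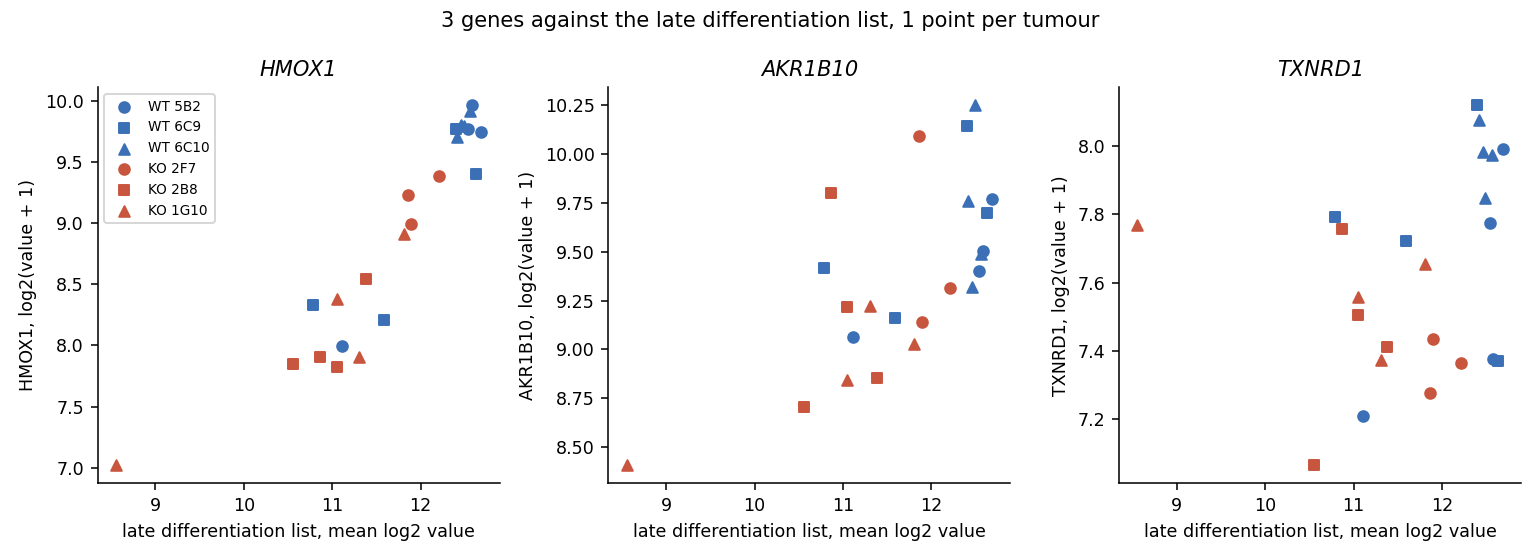
log2(value + 1) of HMOX1, AKR1B10 and TXNRD1 (vertical axes) against the mean log2 value of 23 late differentiation genes (horizontal axes), 1 symbol per tumour, by line. HMOX1 rises with the list across both genotypes (r 0.92), with KO 1G10 5549 lowest in both, AKR1B10 rises with more scatter (r 0.67) and TXNRD1 shows r of 0.26.

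AKR1B10 was the other of the 9 for which both measures passed, with r 0.67 (permutation p 0.0003, adjusted p 0.0014) and rho 0.60 (permutation p 0.0031, adjusted p 0.014). Its r was 0.53 without the 2 tumours farthest from its median and 0.46 within lines, and 4.05% of the genes outside the list had an r as high. The 4 tumours highest in AKR1B10 were WT 6C10 5536, WT 6C9 5532, KO 2F7 5538 and KO 2B8 5544. Their 9 muscle markers summed to 13130, 5692, 10796 and 13046, where the medians were 998 among WT and 691 among KO tumours. WT 5B2 5527, the next highest in AKR1B10, had a muscle sum of 59.7. The part of muscle in AKR1B10 was not tested. TXNRD1, which like HMOX1 was below the WT median in all 11 KO tumours, had r 0.26 (adjusted p 0.414), rho 0.31 (adjusted p 0.27) and r 0.04 within lines. For NQO1, GCLM, GCLC, SLC7A11 and AKR1C2 r lay between -0.37 and 0.21, with neither measure past the threshold. Within WT and within KO tumours r was 0.34 and -0.81 for GCLM and 0.61 and -0.36 for NQO1, given without a test. For GCLC, SLC7A11 and AKR1C2 these values lay between -0.32 and 0.18. Over all tumours r of GCLM was -0.18 without KO 1G10 5549 and WT 6C9 5533. SRXN1 went the opposite way by r and not by rho (adjusted permutation p 0.039 and 0.213), and no r is given because its tumours fell into separate sets. In the 8 tumours high in SRXN1 the list's level was 8.55 to 11.9, and in the other 15 it was 10.9 to 12.7.

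Few pairs of the 9 genes were related across tumours. Of the 36 pairs, 5 passed by the adjusted permutation p of r, 4 of them positive and 1 negative, 0 passed by that of rho, and so 0 by both. The cystine transporter SLC7A11 and GCLC, the ligase it feeds, had r 0.77 (permutation p 0.00037, adjusted p 0.011) and rho 0.55 (adjusted p 0.128). Its r was 0.61 without the 2 tumours farthest in GCLC and 0.51 without both shallow libraries, and it was 0.93 within WT and 0.15 within KO tumours. Both shallow libraries are WT, and specimen 5533 was lowest in both genes, on 5 estimated reads of SLC7A11 and 13 of GCLC. A value within WT without it was not computed, so the r within WT and within KO tumours are not compared. HMOX1 and AKR1B10 had r 0.66 (adjusted p 0.011) and rho 0.61 (adjusted p 0.09), with r 0.57 without the 2 farthest tumours and 0.46 within lines. This pair had the higher rho, and without both shallow libraries also the higher r, 0.63.
NQO1 had r 0.64 with AKR1C2 and 0.60 with GCLM (adjusted p 0.045 and 0.037), and r was 0.13 and 0.29 without specimens 5533 and 5529. Within the KO tumours r was 0.23 with AKR1C2 and 0.51 with GCLM, and without both shallow libraries it was 0.29 and 0.48. The negative pair was SRXN1 and AKR1B10 (adjusted permutation p 0.045 for r and 0.144 for rho). No r is given for it because SRXN1 falls into separate sets. In the 8 tumours high in SRXN1, AKR1B10 ranged from 338 to 682 (median 491), and in the other 15 from 572 to 1217 (median 725). HMOX1 and NQO1, the most used readouts of NRF2, had a rho of 0.21, and GCLC and GCLM, subunits of the same enzyme, one of 0.18.

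**Figure D5:**
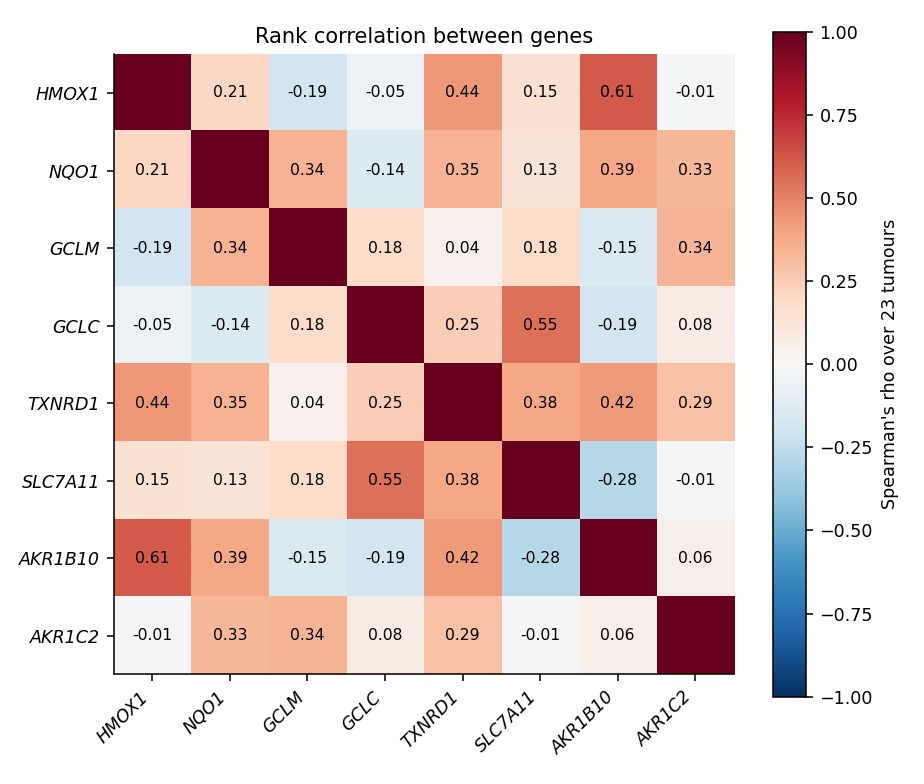
Spearman's rho over the 23 tumours between 8 of the 9 genes (rows and columns), SRXN1 left out, red for positive and blue for negative. Values of 0.55 for GCLC with SLC7A11 and 0.61 for HMOX1 with AKR1B10 are the highest, and none passed after adjustment over the 36 pairs.

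The genes most like each member by Spearman's rho over the 23 tumours, given as a description, differed from member to member. HMOX1 was nearest to KPRP, a protein of the cornified layer that is in the late differentiation list (0.93), the depalmitoylase ABHD17B (0.93) and the ubiquitin ligase MARCHF3 (0.92). AKR1B10 was nearest to WNT11 (0.82), the protease PRSS22 (0.82) and CRNN, which encodes cornulin of the upper epidermis (0.81). SRXN1 was nearest to NELFCD (0.89) and RAE1 (0.86), both on chromosome 20, and to USP25 (0.86). TXNRD1 was nearest to UBL4A (0.81), the proteasome subunit PSMC2 and the clock repressor NR1D2 (both 0.79). NQO1 was nearest to S100A13 (0.89), MRPS27 (0.87) and RFC2 (0.85), SLC7A11 to FIGNL1 (0.85), HSPA13 (0.81) and the cohesin subunit RAD21 (0.80), and AKR1C2 to ZNF268 (0.81), CTDSPL (0.80) and ANAPC13 (0.78). GCLM was nearest to PTMAP2 (0.82), and GCLC to EPHA8 (0.79), a gene with a mean of only 11.1. None of the 9 was among the 3 genes nearest to another.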

How the data were processed

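Per the labels' protocols, libraries were made with a directional poly(A) kit from 500 ng of RNA of frozen tumours. The deposited table gives 1 normalized signal per gene and tumour for 27589 genes. Per the submitters' processing notes STAR, DESeq2 and the build hg38 were used, and versions, strand use and the handling of mouse reads are not given in the sources used here. Mouse reads in conserved sequence can therefore enter human genes. Low values were whole multiples of 1 step, the value of 1 read, within 0.02 reads for 70.7% to 83.9% of values up to 20 reads, so whole reads could not be recovered, and reads per library and gene are estimates.

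The deposited values were analysed as log2(value + 1), which understates changes of low genes. The R package limma (version 3.58.1 under R 4.3.3) was used with a trended prior and Benjamini-Hochberg adjustment at 0.05. It was fitted to the 16063 genes with a mean of at least 10, with the line as a random block (consensus correlation 0.0077) for KO against WT, and with 6 line means for comparisons of lines. It was tested on simulated data. Genotype and line are nested. Line means were compared by an exact permutation test, and relations across tumours by permutation with 100000 resamples.

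The 9 genes and the 18 lists (members, 8 pathway lists, cell markers, differentiation, hypoxia and mitochondrial RNA) were chosen with earlier results of these data known. The rule for names took the 9 genes, up to 4 genes past the threshold of each pathway list or else its 2 most abundant, and the 3 genes nearest to each member by rank correlation, of which some are not printed. Others are marked as picked after their values were seen or belong to the regulators, the paralogs or the families of the 9. Hypoxia genes (14 tested) had a median log2 difference of 0.09 and mitochondrial RNA (13) of -0.37, muscle markers (9) 0.08, basal keratinocyte markers (12) 0.41, and endothelial markers (2) -0.51.

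Paralog identity was computed from GENCODE release 29 transcripts over the longest open reading frame, and coordinates of genes are those of the table. Alternatives were the pseudocount, the filter, the scaling, library weights, no block, line means, and leaving out tumours, lines and both shallow libraries.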

Additional observations from a re-analysis of the deposited data

Results flagged for a closer look

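In lines with 4 tumours, a tumour was picked out where the share of the line's range taken by its gap to the nearest other exceeded the 95% limit of Dixon's test. Chance picks about 1 in 20 groups, and 5 of 45 were picked here. HMOX1 was high in KO line 2B8 specimen 5543, at 370.79, where the other 3 tumours had 226 to 239. GCLM was high in WT line 6C9 specimen 5533, at 109.62, against 57.7 to 65.5, and SLC7A11 was low in the same tumour, at 45.676, against 129 to 141. That library was the shallowest, with 12 and 5 estimated reads for these genes. GCLM was low in WT line 6C10 specimen 5536, at 67.969, against 75.3 to 76.6, and SLC7A11 was low in KO line 2B8 specimen 5544, at 102.24, against 172 to 185.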

How the results depend on the processing

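No paired analysis was possible because the groups share no specimen number. The number of the 9 genes past the adjusted threshold was 0 in each comparison, and with library quality weights it was 2 in KO against WT (HMOX1 and TXNRD1), 2 among WT lines, 4 among KO lines, 4 in 2F7, 2 in 2B8 and 1 in 1G10. Under those weights 11.9%, 40.2%, 49.2%, 6.51% and 2.03% of all genes passed in the 5 comparisons of lines, where 1 tumour, 2F7 5539, had a weight of 67.2 and 5533 one of 0.0015. The estimate of the weights did not converge for the line means, unlike that for KO against WT, so these 5 counts are not usable calls. With 1 tumour left out the count ranged from 0 to 1 in 2B8 and in 1G10, the 1 being HMOX1 without 5B2 specimen 5529, where 17 and 16 of 16065 genes passed, and was 0 elsewhere. HMOX1 lay between -1.32 and -0.80 over 39 alternatives (adjusted p 0.0129 to 0.815), with the lowest value without line 2F7 and the highest without line 6C10. TXNRD1 lay between -0.41 and -0.20 (adjusted p 0.0184 to 0.815) and AKR1B10 between -0.57 and -0.28 (adjusted p 0.0771 to 0.815). Over the alternatives, 337 values of single genes kept sign and side of the threshold, 11 turned sign and 2 newly passed.
Signs turned for NQO1, GCLC and SLC7A11, each near 0. NQO1 was 0.0601 without both shallow libraries, 0.027 without 5533 (leaving out single tumours gave -0.135 to 0.027), 0.0082 without line 6C9 and 0.0047 without 2B8. GCLC was -0.023 with weights, -0.019 without both shallow libraries, -0.015 without 5533 (-0.015 to 0.111) and -0.0769 without 6C9. SLC7A11 was -0.18 with weights, -0.029 without both shallow libraries and -0.16 without 6C9. The cause was not tested. A minimum mean of 100 left out GCLM. No pair of the 9 passed by both correlations with or without both shallow libraries, an alternative added after the data were seen.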
